A study of Mus musculus with 9 samples.

Results

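Gene expression in BNST, the bed nucleus of the stria terminalis in the extended amygdala, was set against that in the dorsal striatum (dStr), the part of the basal ganglia that receives most of the cortical motor input. The comparison takes the 3 arrays labelled BNST and the 3 labelled dStr, which are 6 of the 9 arrays of a study of mouse forebrain that also sampled the nucleus accumbens (NAc). All tissue was punched from semi-frozen coronal slices of 300 µm, cut from brains of isoflurane-anaesthetised mice. Total RNA was extracted, and 10 ng of it was amplified, labelled with biotin and hybridised to Affymetrix Mouse430_2 arrays. The labels name no drug and no mutation for any group. They give neither strain, sex nor age, and they number the samples of a region as biological replicates without saying whether a sample was 1 animal or a pool. P-values therefore measure the spread between samples of a region. That spread and the SEs were estimated over all 9 arrays, those of NAc included.

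Most neurons of both regions are GABAergic. The dorsal striatum consists mainly of spiny projection neurons, which receive dopamine from the midbrain and split into a direct pathway, marked by the D1 dopamine receptor and substance P, and an indirect pathway, marked by the D2 receptor and enkephalin. The BNST is a mosaic of small nuclei whose GABA neurons express many neuropeptides, among them corticotropin-releasing hormone, and project to hypothalamus and brainstem; it lies beside the lateral ventricle, which is lined by ciliated ependymal cells. In tissue punches, fewer cells of a type and less RNA per cell cannot be told apart.

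Of 14208 genes tested, 2027 (14.3%) passed limma's moderated test at an adjusted p under 0.05 over all genes. They comprised 702 genes higher in BNST (4.94%) and 1325 lower in BNST (9.33%). The difference was at least 1 on the log2 scale for 267 of the higher genes and 599 of the lower ones, and at least 3 for 13 and 15 of them. Arrays of the regions did not overlap for 36.4% of all genes tested. Log2 differences are BNST minus dStr of log2(intensity + 16), which understates the differences of dim genes. The median gene differed by -0.06. Quantile normalisation moved that median by 0.12 and made 52% of the calls higher in BNST, against 34.6% without it. Differences are given without that normalisation.

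BNST 1 stood apart from the other BNST arrays. Across genes, which are not independent replicates, BNST 1 correlated with BNST 2 and BNST 3 at 0.934 and 0.948, whereas BNST 2 and BNST 3 correlated at 0.981. BNST 1 also correlated more closely with NAc 2 (0.953) and NAc 3 (0.965) than with either of them. Of the 1325 genes lower in BNST, 1072 (80.9%) had BNST 1 as the BNST array nearest to dStr. Of the 702 higher genes, 237 (33.8%) did, while BNST 2 was nearest to dStr for 346 and BNST 3 for 119. Without BNST 1, 756 genes (5.32%) were higher and 1918 (13.5%) lower in BNST. BNST 2 had the lowest mean over 40 cytosolic ribosomal protein genes, 10.49 on the log2 scale, against 11.16 on BNST 1, 11.00 on BNST 3 and 10.93 to 11.06 on the dStr arrays. None of those genes passed the test.

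**Figure D1:**
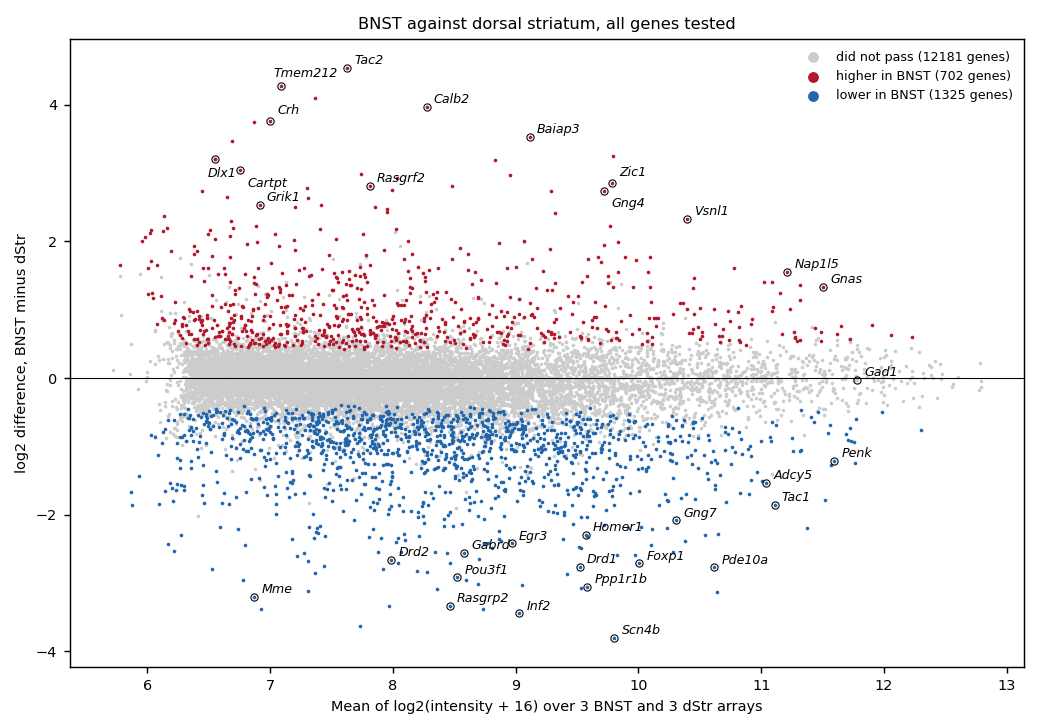
Difference between BNST and dStr for each of 14208 genes (vertical axis, log2 scale, BNST minus dStr) against its mean level over the 6 arrays (horizontal axis, log2 of intensity + 16). Red and blue points are the 702 genes higher and the 1325 genes lower in BNST, grey points did not pass, and circles mark genes named in the text, with Tac2 at 4.54 and Scn4b at -3.80 as the extremes.

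Promoter windows are shown for 3 genes: Tac2, which had the largest difference among genes higher in BNST, Scn4b, which had the largest among genes lower in BNST, and Cartpt, a peptide gene higher in BNST whose window held a searched motif. Each window runs from 250 bases before to 50 after the RefSeq start on mouse build GRCm38.p6, on the strand of the gene. Tac2 lies on the plus strand at chr10:127724228-127724527, Cartpt on the minus strand at chr13:99900634-99900933 and Scn4b on the plus strand at chr9:45138374-45138673. Capitals mark the cyclic AMP response element TGACGTCA, searched on both strands, which was found in the Cartpt window 112 bases before the start.
Tac2: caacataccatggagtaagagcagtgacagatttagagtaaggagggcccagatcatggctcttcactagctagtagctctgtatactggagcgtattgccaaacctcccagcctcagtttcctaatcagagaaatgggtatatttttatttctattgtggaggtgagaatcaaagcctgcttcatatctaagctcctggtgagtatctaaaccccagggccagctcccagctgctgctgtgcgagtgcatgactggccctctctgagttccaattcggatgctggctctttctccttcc
Cartpt: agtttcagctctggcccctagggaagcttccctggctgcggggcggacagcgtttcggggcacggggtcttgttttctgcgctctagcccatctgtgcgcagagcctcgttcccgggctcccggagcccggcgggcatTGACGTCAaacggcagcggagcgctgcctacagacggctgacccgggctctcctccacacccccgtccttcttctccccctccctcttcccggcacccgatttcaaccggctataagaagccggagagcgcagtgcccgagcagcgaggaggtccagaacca
Scn4b: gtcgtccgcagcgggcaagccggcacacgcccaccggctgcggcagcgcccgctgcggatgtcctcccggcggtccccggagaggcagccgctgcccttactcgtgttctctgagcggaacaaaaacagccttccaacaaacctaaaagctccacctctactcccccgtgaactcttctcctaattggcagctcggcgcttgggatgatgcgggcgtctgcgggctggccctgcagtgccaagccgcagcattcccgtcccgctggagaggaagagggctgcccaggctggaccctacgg
The Tac2 and Scn4b windows held neither this element nor the Egr motif GCGNGGGCG, where N is any base. Over all tested genes with a RefSeq window, 363 of 11357 (3.2%) held the cyclic AMP element, beside 14 of 555 genes higher in BNST (2.52%) and 31 of 1037 lower genes (2.99%). The Egr motif stood in 64 of the 555 higher genes (11.5%) and in 168 of the 1037 lower genes (16.2%), beside 1304 of all 11357 (11.5%). These are matches of letters and not measured binding sites.

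Several neuropeptide genes were much higher in BNST. Of 30 peptide precursor genes tested, 5 were higher in BNST, 3 were lower and 22 did not pass, beside 4.94% and 9.33% of all genes. Tac2, the precursor of neurokinin B, read 843, 753 and 1294 on BNST 1, 2 and 3, against 27.5, 26.6 and 21.4 on dStr 1, 2 and 3 (log2 difference 4.54, SE 0.27, adjusted p = 2.92e-05). Crh, corticotropin-releasing hormone, read 648, 476 and 303 in BNST, against 15.5, 27.1 and 15 in dStr, where the last array stood at the floor of the table (3.76, SE 0.37, adjusted p = 0.000157). The BNST arrays lay far above the dStr arrays in both cases, with no overlap. Cartpt, the precursor of cocaine- and amphetamine-regulated transcript peptide, whose window is printed above, read 424, 204 and 290 in BNST and 20.7, 31.1 and 15 in dStr (3.04, SE 0.25). Its NAc mean was 1200. Nts, neurotensin, read 1176, 734 and 943 in BNST and 91.4, 301 and 56 in dStr (2.82, SE 0.54, adjusted p = 0.0063), with dStr 2 the highest of the dStr arrays. Pnoc, the nociceptin precursor, read 153, 135 and 172 against 46.2, 45.3 and 37.5 (1.52, SE 0.13, adjusted p = 9.26e-05), and its NAc mean of 48.5 was near that of dStr.

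The peptides of the striatal projection pathways went the other way. Tac1, the substance P precursor of the direct pathway, read 1385, 692 and 1564 in BNST, against 3898, 4665 and 4020 in dStr (-1.85, SE 0.27, adjusted p = 0.00145). Penk, the enkephalin precursor of the indirect pathway, read 2238, 1316 and 2773 in BNST and 4079, 5205 and 4870 in dStr (-1.21, SE 0.25, adjusted p = 0.00928). For both genes BNST 2 was lowest and all BNST arrays lay below all dStr arrays. Pdyn, the prodynorphin gene, which is also a direct pathway marker, overlapped between regions at 272, 230 and 303 in BNST and 330, 336 and 249 in dStr (-0.17, SE 0.17). Sst, somatostatin, read 700, 603 and 834 in BNST and 381, 404 and 347 in dStr, without overlap, but missed the threshold (0.88, SE 0.27, adjusted p = 0.0531). Avp, the vasopressin gene, averaged 183 ± 9.03 in BNST and 183 ± 13.4 in dStr (SD, n = 3 each).

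Among 34 peptide receptor genes tested, 5 were higher and 1 lower in BNST, beside 4.94% and 9.33% of all genes. That count of 5 fell to between 2 and 3 when any 1 of the 6 arrays was left out (2 without dStr 3, 3 without any other). Such counts were not far from the background. The 1 lower call, Oprm1 (-1.23), an opioid receptor with another probe set going the other way, was lost without BNST 2, BNST 3 or any 1 dStr array (adjusted p up to 0.158). Sstr2, a somatostatin receptor, passed in each case, at 286, 219 and 248 in BNST and 104, 142 and 100 in dStr (1.03, SE 0.15, adjusted p = 0.00167). Npy2r, a neuropeptide Y receptor, read 252, 168 and 172 against 52.8, 26 and 26.8 (2.08, SE 0.46, adjusted p = 0.0129) and lost its call without dStr 2 (adjusted p = 0.0521) or dStr 3 (0.0559). Adcyap1r1, the PACAP receptor, was also higher (1.49), although another probe set of the gene went the other way. Calcr (2.00, adjusted p = 0.0495), the calcitonin receptor, and Trhr (1.86, adjusted p = 0.0497), the thyrotropin-releasing hormone receptor, each lost the call when any 1 of the 6 arrays was left out, with adjusted p of up to 0.134 for Calcr and up to 0.159 for Trhr.

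Genes that pack and release peptides were higher in BNST where they passed. Of 22 genes of dense-core vesicles and prohormone processing, 6 were higher and none was lower, beside 4.94% and 9.33% of all genes. The median over the list was 0.33, beside -0.06 over all genes. The count stayed between 5 and 6 with any 1 of the 6 arrays left out, and without BNST 1 there was also 1 lower gene. Baiap3, which acts in dense-core vesicle trafficking, read 1851, 1823 and 1925 in BNST, against 183, 139 and 126 in dStr (3.53, SE 0.35, adjusted p = 0.000165). Resp18, a luminal protein of neuroendocrine secretory granules, read 1581, 1128 and 1444 in BNST and 162, 160 and 162 in dStr (2.97, SE 0.62, adjusted p = 0.0096). For both genes the regions lay far apart with no overlap. Sytl4, a Rab-binding exocytosis protein, read 124, 132 and 106 in BNST and 15, 15 and 15.5 in dStr (2.13, SE 0.12), with 2 dStr arrays at the floor and a NAc mean of 16.6. Cadps2 and Cadps, which prime these vesicles for release, differed by 2.10 and 0.67. Chga, chromogranin A, averaged 893 ± 187 and 435 ± 46.3 without passing (adjusted p = 0.0813). Of 10 peptidases 1 was higher and 2 were lower, beside the same shares of all genes. Their count was 1 lower without BNST 2, BNST 3, dStr 1 or dStr 3, and 2 higher and 3 lower without BNST 1. Ecel1, an endothelin-converting enzyme relative, read 559, 511 and 727 in BNST and 283, 323 and 306 in dStr (0.93, SE 0.17, adjusted p = 0.00506). Mme, which encodes neprilysin, a peptidase that cleaves enkephalin and substance P, read 29.3, 17.6 and 21.9 in BNST and 306, 388 and 328 in dStr (-3.20, SE 0.31, adjusted p = 0.000152).

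**Figure D2:**
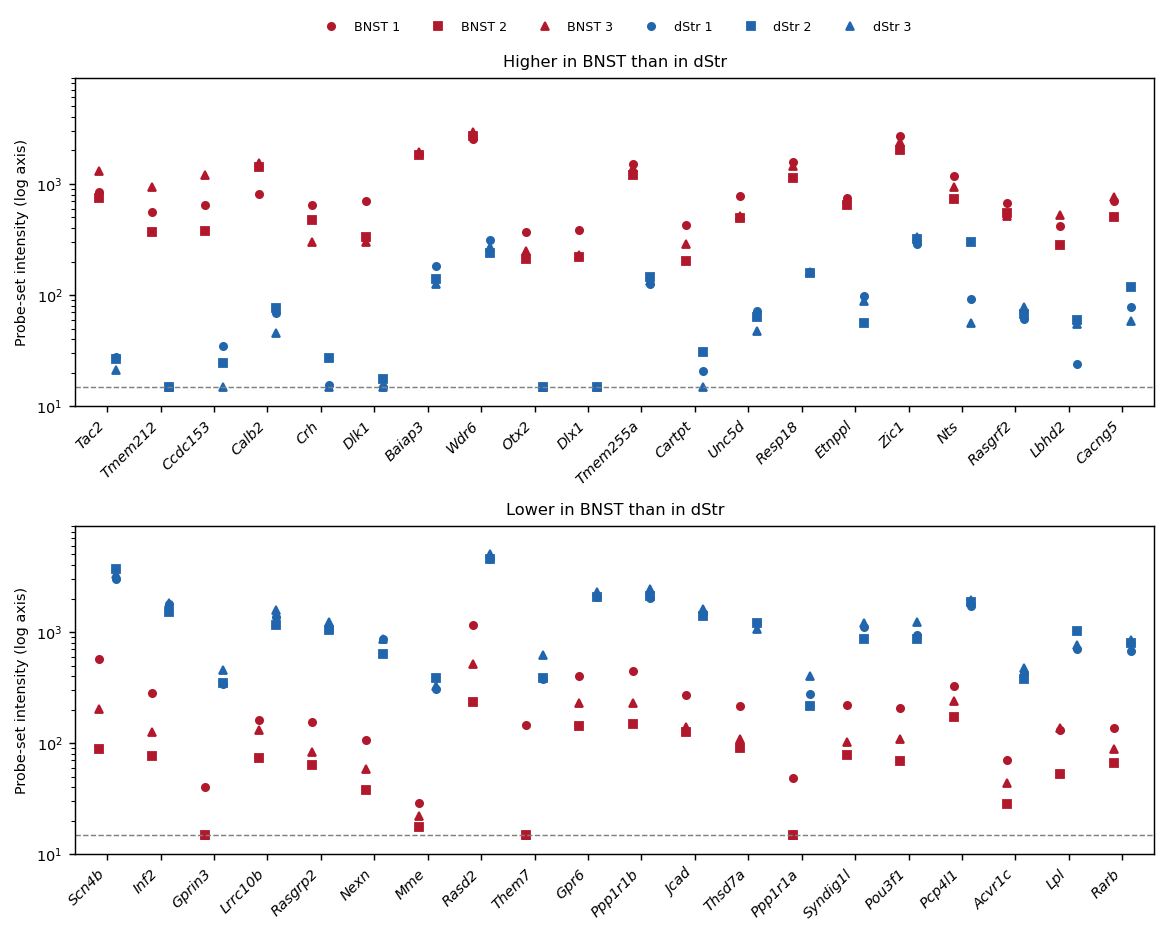
Probe-set intensity (log axis) on each array for 20 genes with the largest differences in each direction, upper panel higher and lower panel lower in BNST; red symbols left are BNST, blue symbols right are dStr, circles, squares and triangles are replicates 1, 2 and 3, and the dashed line is the floor of 15. Regions do not overlap for any gene, as the choice of genes required, and in the lower panel BNST 1 is the BNST array nearest to dStr for most genes.

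Genes of spiny projection neurons were lower in BNST across the list. All 30 tested genes of the list shared by both pathways were lower (9.33% of all genes were), with a median of -2.21 and a range from -3.80 to -0.69, and 29 or 30 of them passed with any 1 of the 6 arrays left out. The list was chosen with earlier results of these data known, so its share is descriptive and not a test. Its members Scn4b, Gprin3, Lrrc10b, Rasgrp2 and Rasd2 are among the lower genes with the largest differences. Scn4b, a sodium channel beta subunit, read 578, 89.7 and 202 in BNST, against 3009, 3661 and 3347 in dStr (-3.80, SE 0.53, adjusted p = 0.00115). Ppp1r1b, which encodes a dopamine-controlled phosphatase inhibitor of spiny neurons, read 451, 149 and 229 in BNST and 2034, 2121 and 2438 in dStr (-3.05, SE 0.39). Rasd2, the striatal small GTPase Rhes, read 1161, 237 and 514 against 4529, 4577 and 5016 (-3.13, SE 0.42). In each of these genes BNST 1 was the highest BNST array and BNST 2 the lowest. The list mean on the log2 scale was 9.38, 8.37 and 8.84 on the BNST arrays, against 10.98, 11.06 and 11.17 on the dStr arrays. Gprin3, a regulator of neurite outgrowth, stood at the floor of the table on BNST 2 and BNST 3 with 40.2 on BNST 1, against 340, 347 and 453 in dStr.

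Receptor genes of both output pathways were lower. Drd1, the D1 dopamine receptor, read 547, 121 and 275 in BNST and 1837, 1992 and 1876 in dStr (-2.76, SE 0.42, adjusted p = 0.00173). Drd2, the D2 receptor, read 120, 66.4 and 75.3 in BNST and 697, 476 and 725 in dStr (-2.66, SE 0.21, adjusted p = 8.8e-05). Gpr6, an orphan receptor of the indirect pathway, read 400, 144 and 232 against 2068, 2076 and 2282 (-3.08, SE 0.30). Of the genes that mark 1 pathway, 4 of 9 for the direct and 3 of 6 for the indirect pathway were lower, and none was higher. Over all genes 9.33% were lower and 4.94% higher. Whether the regions differed more in one pathway than in the other was not tested. Isl1, a homeobox gene of direct pathway neurons, overlapped at 407, 225 and 320 in BNST and 316, 283 and 309 in dStr. Of the GABA synthesis and transport genes, Gad2 was higher (0.55), with another probe set going the other way, and lost its call without any 1 of the 6 arrays (adjusted p up to 0.147). Gad1, the larger glutamate decarboxylase, averaged 3478 ± 295 in BNST and 3554 ± 326 in dStr, and Slc32a1, the vesicular GABA transporter, 2389 ± 619 and 2673 ± 198 (SD, n = 3 each), with overlap in both. Chat, which marks cholinergic neurons, averaged 104 ± 2.82 and 104 ± 8.11, and none of 5 tested cholinergic genes passed.

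Among transcription factors some were higher and some lower. Of 38 factors of the limbic and ventral forebrain, 9 were higher and 5 lower in BNST, and of 21 factors of spiny neurons, 2 were higher and 10 lower, beside 4.94% higher and 9.33% lower over all genes, so that the 5 and the 2 were not far from the background. The count of 5 was 3 without BNST 2, BNST 3 or dStr 2 and 2 without dStr 1 or dStr 3, the count of 2 was 1 without BNST 3 or dStr 3, and the counts of 9 and 10 moved by less than 1.5 times. Zic1, a zinc finger factor of midline forebrain, read 2684, 2028 and 2395 in BNST, against 291, 317 and 332 in dStr (2.85, SE 0.28, adjusted p = 0.000152). Its relatives Zic4 (1.62, SE 0.16) and Zic5 (1.03, SE 0.14) were higher as well, and the NAc means of all 3 genes, at 322, 59.5 and 120, were near those of dStr, at 313, 52.7 and 120. Dlx1, a homeobox gene of GABAergic neurons, read 384, 221 and 228 in BNST and stood at the floor on all dStr arrays, at least 17.9-fold higher (adjusted p = 0.000892). Sp8, a zinc finger factor of ventral forebrain interneurons, read 117, 103 and 122 against the floor in dStr, at least 7.59-fold higher (adjusted p = 2.97e-05). Both bounds set the geometric mean of the BNST arrays against the floor of 15. Sp8 was counted in the list of spiny neuron factors.

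On the striatal side, Foxp1, a forkhead factor of all spiny neurons, read 564, 271 and 376 in BNST and 2578, 2583 and 2681 in dStr (-2.71, SE 0.23, adjusted p = 9.13e-05). Foxp2, its paralogue, differed by -2.16 (SE 0.28) with NAc at 704, near the dStr mean of 707. Pou3f1, a POU-domain factor counted in the limbic and ventral forebrain list, read 207, 69.8 and 109 in BNST and 939, 863 and 1219 in dStr (-2.92, SE 0.32). Pbx3 (-2.31), a homeobox gene, and Bcl11b (-1.82), which spiny neurons need for their maturation, were lower too. The retinoid receptors formed a pair: Rarb read 137, 67 and 89.5 in BNST and 671, 795 and 851 in dStr (-2.83, SE 0.27), and its partner Rxrg 23.9, 30 and 35.2 against 175, 197 and 197 (-2.18, SE 0.47, adjusted p = 0.0113). Rbp4, the plasma retinol carrier, followed them (-2.21, SE 0.21). Of 15 retinoid genes tested 5 were lower and none higher, beside 9.33% and 4.94% of all genes, and 3 were lower without BNST 2, BNST 3, dStr 1 or dStr 3.

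Several families that carry the signal from receptors to cyclic AMP held members that moved in opposite directions. Of 26 G protein subunit genes, 6 were higher and 5 lower, beside 4.94% and 9.33% of all genes. The lower count was 3 without BNST 2 or dStr 2, near the background. Gng7, the gamma subunit that pairs with the striatal olfactory-type alpha subunit, read 756, 447 and 633 in BNST and 2406, 2474 and 2923 in dStr (-2.08, SE 0.20, adjusted p = 0.000153). Gng4, another gamma subunit, read 2413, 1743 and 2382 in BNST and 312, 331 and 290 in dStr (2.73, SE 0.46, adjusted p = 0.00317). Gng2 likewise read 637, 514 and 553 against 74.2, 108 and 87 (2.47, SE 0.34). The alpha subunits that stimulate cyclase also parted. Gnal, the olfactory-type subunit through which D1 receptors signal, read 1058, 430 and 585 in BNST and 2118, 1954 and 2350 in dStr (-1.70, SE 0.29), with 1 of its other probe sets going the other way. Gnas, the widespread subunit, read 4190, 4724 and 4917 in BNST and 1638, 1899 and 1913 in dStr (1.34, SE 0.18, adjusted p = 0.000954).

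All 7 adenylyl cyclase genes tested passed, 4 lower and 3 higher in BNST, beside 9.33% lower and 4.94% higher over all genes. Adcy5, the main striatal cyclase, read 1532, 898 and 1318 in BNST and 3256, 3616 and 3869 in dStr (-1.54, SE 0.21, adjusted p = 0.000952), although 1 of its other probe sets went the other way. Adcy1, a calcium-stimulated cyclase, differed by -1.25 (SE 0.24) and Adcy9 by -0.71 (SE 0.13). Adcy2 was higher, at 589, 531 and 594 in BNST and 348, 339 and 374 in dStr (0.67, SE 0.14, adjusted p = 0.00923). The calls of Adcy3 (-0.43), Adcy6 (0.71) and Adcy7 (0.91) were less stable. Adcy3 was lost without BNST 2, BNST 3 or any 1 dStr array (adjusted p up to 0.12) and under quantile normalisation (0.197). Without BNST 3, 2 cyclases were higher, and without any other of the 6 arrays 1 was, with adjusted p of up to 0.123 for Adcy6 and up to 0.135 for Adcy7. Of 18 phosphodiesterases, which destroy cyclic nucleotides, 6 were lower and 1 higher, beside the same shares of all genes, so that the higher count was near the background. Pde10a, a phosphodiesterase abundant in spiny neurons, read 1057, 335 and 560 in BNST and 4019, 3940 and 4297 in dStr (-2.77, SE 0.40). Pde1a went against its calmodulin-dependent relative Pde1b. It read 571, 488 and 327 in BNST and 123, 96.1 and 118 in dStr (1.87, SE 0.26), while Pde1b read 918, 428 and 725 against 3028, 3615 and 3240 (-2.29, SE 0.26). Without BNST 2, 3 phosphodiesterases were lower.

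Kinase regulators showed the same kind of pair. Prkar2b, a regulatory subunit of protein kinase A, read 932, 493 and 600 in BNST and 1571, 1790 and 1741 in dStr (-1.36, SE 0.21), and Prkar2a 1236, 954 and 906 against 513, 423 and 387 (1.19, SE 0.16). Among protein kinase C genes, Prkch was lower (-2.42, SE 0.29) and Prkcd higher (1.18, SE 0.13). Of 15 RGS proteins, which switch G proteins off, 7 were lower and none was higher, beside 9.33% and 4.94% of all genes. Rgs9, whose product speeds D2 receptor deactivation, read 466, 279 and 336 in BNST and 2173, 2037 and 2423 in dStr (-2.59, SE 0.18, adjusted p = 5.38e-05). Among Ras regulators, Rasgrp2, an exchange factor for Rap, read 155, 64.2 and 83.8 in BNST and 1054, 1035 and 1242 in dStr (-3.34, SE 0.24). Rasgrf2, a calcium-regulated exchange factor, read 678, 552 and 518 against 61.5, 67.4 and 78.7 (2.81, SE 0.23), and Rasd1, the dexamethasone-induced relative of Rasd2, was 1.49 higher on the log2 scale (SE 0.18) where Rasd2 was lower.

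**Figure D3:**
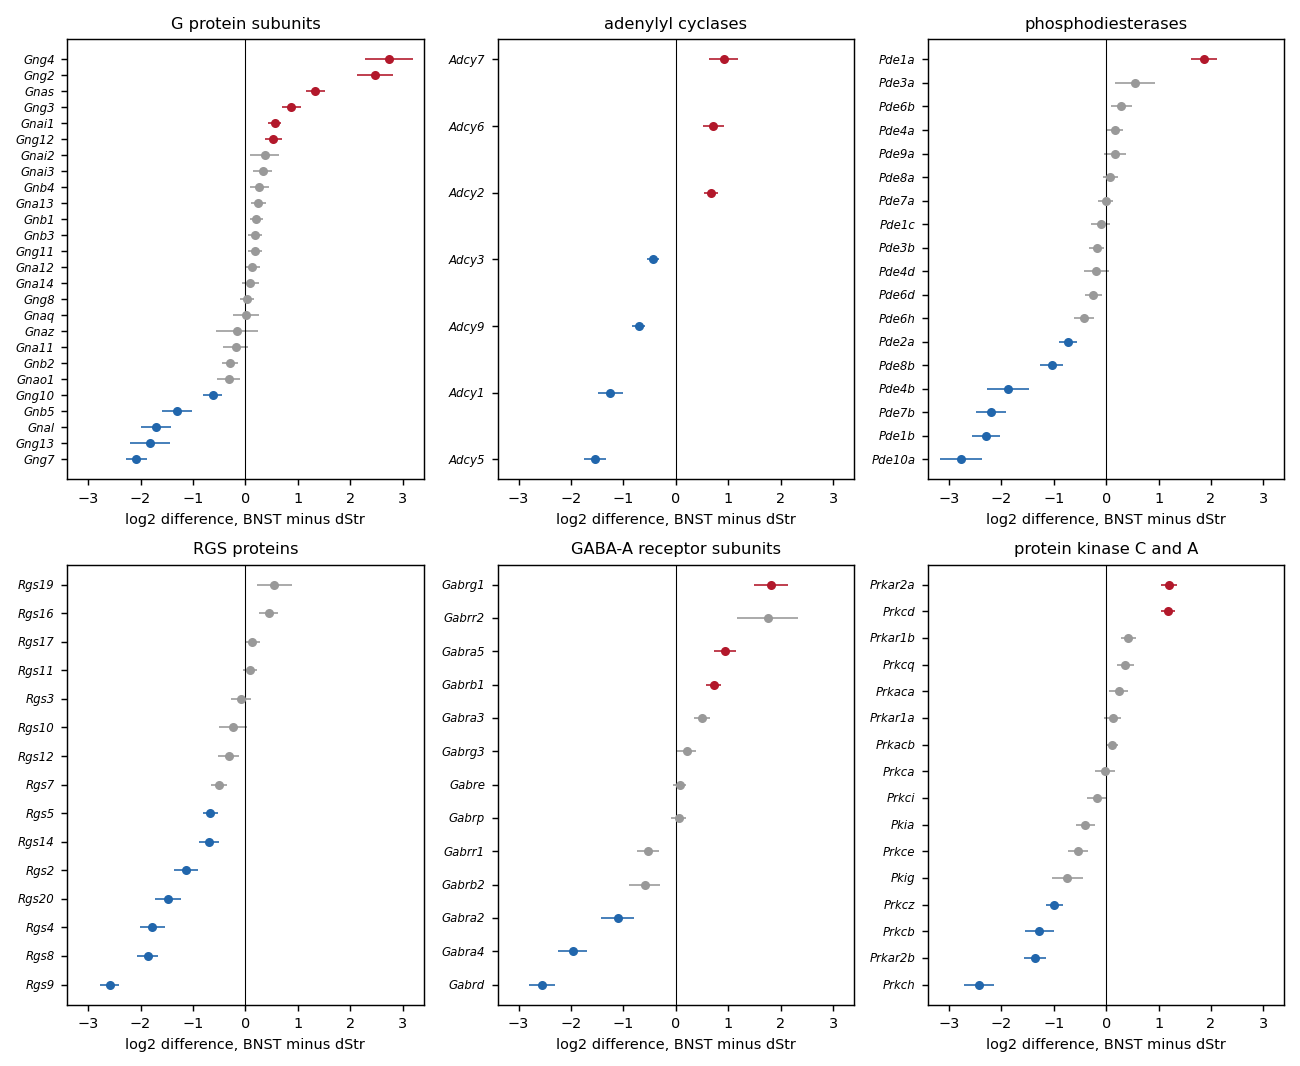
Log2 difference (BNST minus dStr, points, with bars of 1 SE) of every tested member of 6 signalling families, each panel sorted. Red members were higher, blue ones lower in BNST and grey ones did not pass; the RGS panel holds blue members and no red one, and the other 5 panels hold both.

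GABA-A receptor subunits divided evenly, with 3 of 13 higher and 3 lower, beside 4.94% and 9.33% of all genes. Gabrd, the delta subunit of extrasynaptic receptors, read 198, 91.6 and 154 in BNST and 865, 847 and 1032 in dStr (-2.56, SE 0.25, adjusted p = 0.000152). Its other kept probe set differed by only -0.49. Gabra4, the alpha subunit with which delta assembles in striatum, read 443, 245 and 314 in BNST and 1197, 1413 and 1347 in dStr (-1.97, SE 0.27). For both genes every BNST array lay below every dStr array. Gabrg1, a gamma subunit, read 1024, 609 and 592 in BNST and 204, 195 and 177 in dStr (1.82, SE 0.33, adjusted p = 0.00475). Gabra5 (0.94) and Gabrb1 (0.72) were higher too, and Gabra5 lost its call without BNST 3 (adjusted p = 0.0534), dStr 1 (0.0733) or dStr 3 (0.0629). Gabra2 (-1.11) lost its call without any 1 of BNST 2, BNST 3 and the dStr arrays, with adjusted p of up to 0.15.

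Glutamate receptors held pairs as well. Grik1, a kainate receptor subunit, read 319, 261 and 248 in BNST and 42.6, 29 and 31.6 in dStr (2.54, SE 0.36, adjusted p = 0.00126), whereas Grik2 read 321, 176 and 182 against 664, 458 and 526 (-1.26, SE 0.25, adjusted p = 0.00798). The other kept probe set of Grik1 differed by only 0.44. Grin3a, an NMDA receptor subunit that lowers calcium entry, was higher, at 421, 355 and 377 against 107, 122 and 103 (1.66, SE 0.23). Homer1, a scaffold of group I metabotropic receptors, read 545, 231 and 275 in BNST and 1592, 1739 and 1667 in dStr (-2.29, SE 0.27), and Homer2 read 530, 456 and 600 against 155, 163 and 178 (1.58, SE 0.14). Glra2, a glycine receptor alpha subunit, was 1.48 higher (SE 0.22). Slc17a6, a vesicular glutamate transporter, read 144, 177 and 196 in BNST and 19, 30 and 34.8 in dStr (2.11, SE 0.25, adjusted p = 0.000412). It marks subcortical glutamate neurons, and of 16 thalamic and habenular markers, which include it, 2 were higher and 2 lower, beside 4.94% and 9.33% of all genes.

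Most ion channel genes that passed were lower in BNST. Of 49 potassium channel genes 21 were lower and 7 higher, of 32 calcium, HCN and TRP channel genes 13 and 2, and of 9 sodium channel genes 4 and 0, beside 9.33% lower and 4.94% higher over all genes. Counts of lower potassium channel genes ran from 12 without BNST 2 to 22 without BNST 1, with 13 without dStr 3, and higher ones were 3 without BNST 3 or dStr 1 and 4 without BNST 2 or dStr 3. Kcnq3, a subunit of the M-current, read 281, 74.2 and 92.9 in BNST and 802, 764 and 922 in dStr (-2.56, SE 0.39), and its partner Kcnq5 differed by -1.94 (SE 0.35). Kcna4 and Kcnd2, pore subunits of A-type currents, differed by -2.32 and -1.59. Kcnj2, an inward rectifier of spiny neurons, read 35, 26.5 and 27.7 in BNST and 113, 127 and 122 in dStr (-1.59, SE 0.19). Kcnd3, another A-type subunit, was higher, at 685, 573 and 665 in BNST and 366, 363 and 280 in dStr (0.90, SE 0.14, adjusted p = 0.00213). Trpc4, a cation channel opened downstream of phospholipase C, read 230, 186 and 221 in BNST and 15, 38.9 and 41.7 in dStr (2.30, SE 0.23). Cacng5 was higher (2.75, SE 0.23) and Cacng4 lower (-1.35, SE 0.19), and both encode proteins that travel with AMPA receptors. The other kept probe set differed by only 0.096 for Cacng5 and by -0.49 for Cacng4.

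Calcium handling showed such contrasts outside the channels too. Slc8a1, a sodium-calcium exchanger, read 443, 396 and 310 in BNST and 39.7, 58.1 and 45.5 in dStr (2.64, SE 0.25), while Atp2b1, a plasma membrane calcium pump, read 2207, 1104 and 743 against 5068, 6074 and 5854 (-2.20, SE 0.34, adjusted p = 0.00195). Calb2, the calcium buffer calretinin, read 809, 1428 and 1529 in BNST and 68.9, 76.1 and 45.5 in dStr (3.97, SE 0.30). Of 24 calcium-binding and interneuron genes, Calb2 included, 4 were higher and 7 lower, beside 4.94% and 9.33% of all genes. Their median was -0.38, beside -0.06 over all genes, and the lower count was 4 without BNST 2, BNST 3 or dStr 3. The neuronal calcium sensor genes Vsnl1 (2.33, SE 0.24) and Hpcal1 (2.01, SE 0.19) were higher. The calmodulin-dependent kinase genes Camk4 (-2.22, SE 0.31) and Camk2b (-0.92, SE 0.21) were lower. Vsnl1 read 3116, 2776 and 3107 in BNST and 525, 676 and 560 in dStr.

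Genes of guidance receptors and adhesion molecules included some that were higher and some that were lower. Unc5d, a netrin-family receptor that mediates repulsion, read 786, 497 and 513 in BNST and 71.6, 64.2 and 47.2 in dStr (2.98, SE 0.33, adjusted p = 0.000319). Robo2, a Slit receptor, read 151, 112 and 133 in BNST and 426, 437 and 384 in dStr (-1.55, SE 0.17). Both neuropilins, co-receptors for class 3 semaphorins, were higher, Nrp1 by 1.33 (SE 0.16) and Nrp2 by 1.55 (SE 0.27), while Sema3a, a semaphorin of that class, was lower (-1.01, SE 0.16). Plxnd1, a plexin of direct pathway neurons, read 41.4, 26 and 28.8 against 286, 168 and 300 (-2.45, SE 0.32). Among 27 cadherins 5 were higher and 4 lower, beside 4.94% and 9.33% of all genes, with 2 lower without BNST 3, so that the lower count was near the background. Pcdh8 read 1672, 1412 and 1737 in BNST and 247, 230 and 204 in dStr (2.74, SE 0.32), Pcdh19 was 2.18 higher (SE 0.33) and Cdh8 was lower (-1.51, SE 0.15). Of 45 synaptic organisers 7 were higher and 15 lower, beside the same shares, and the count of 15 fell to 7 without dStr 3, 8 without BNST 3 and 9 without BNST 2 or dStr 2. Cbln4, a secreted presynaptic organiser, was higher (1.60, SE 0.28), as was Cntnap4 (1.54, SE 0.19).

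Of 45 actin and postsynaptic scaffold genes, 18 were lower and 1 higher, beside 9.33% and 4.94% of all genes, and with any 1 of the 6 arrays left out 16 to 21 were lower. Inf2, a formin, read 286, 76.9 and 125 in BNST and 1795, 1511 and 1829 in dStr (-3.44, SE 0.34, adjusted p = 0.000165). Its other kept probe set differed by only -0.84. Actn2, an actinin of dendritic spines, read 114, 60.5 and 76.5 against 512, 520 and 630 (-2.54, SE 0.21). Shank3, a master scaffold of the postsynaptic density, was also lower (-1.23, SE 0.18), as was Dlgap2, a SAP90-associated scaffold (-2.60, SE 0.38).

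**Figure D4:**
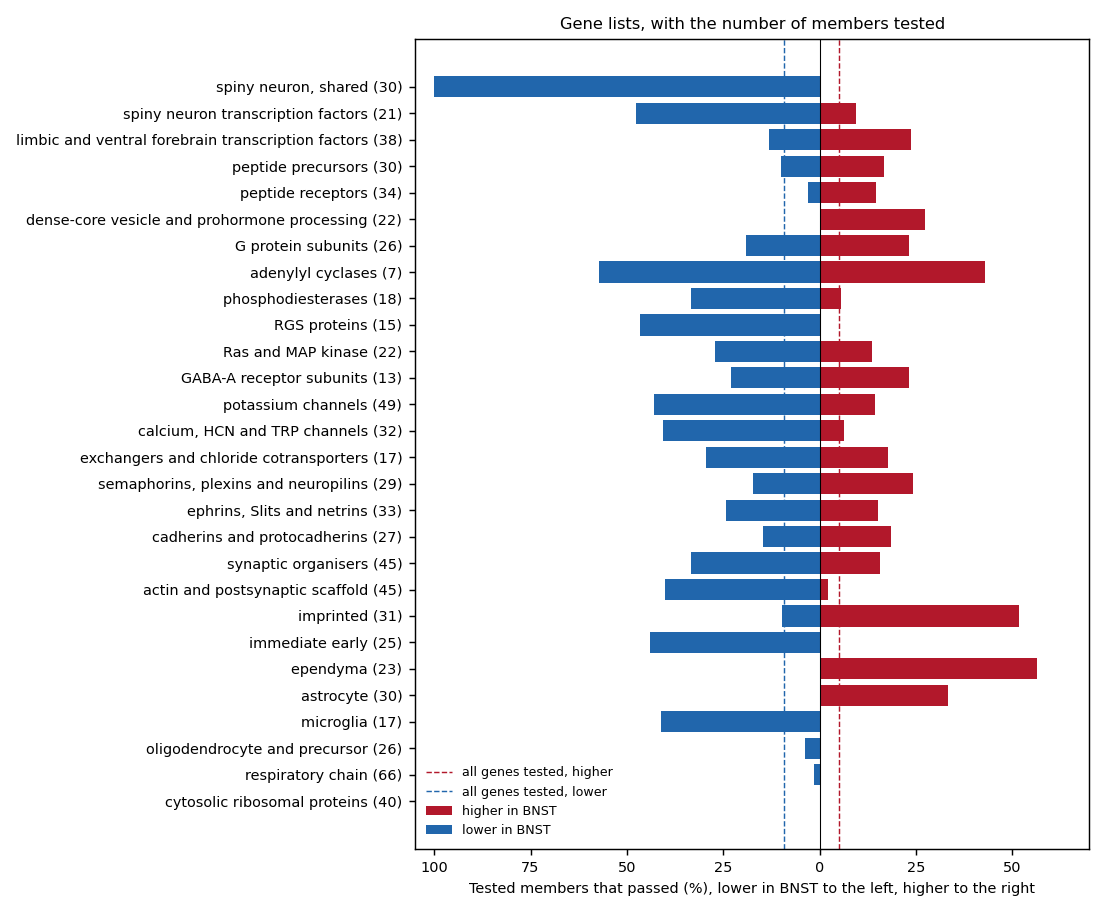
Share of tested members (horizontal axis, %) that were higher (red, to the right) or lower (blue, to the left) in BNST for 28 gene lists, with the number tested in brackets and dashed lines at the shares of all genes, 4.94% and 9.33%. The spiny neuron list reaches 100% to the left, and the ependymal and imprinted lists extend furthest to the right.

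Receptors and enzymes of other transmitters were examined beside these families. Cnr1, the cannabinoid receptor, read 791, 425 and 437 in BNST and 1497, 1601 and 2189 in dStr (-1.69, SE 0.30, adjusted p = 0.00434), and Dagla, which makes its ligand, read 586, 236 and 346 against 1079, 1024 and 1202 (-1.55, SE 0.32). For both, the regions did not overlap. Chrm1, a muscarinic receptor, was lower (-1.03, SE 0.18), as were Grm3 (-1.38, SE 0.27) and Grm4 (-1.31, SE 0.13), metabotropic glutamate receptors. Of 14 serotonin, adrenergic and histamine receptors 1 was higher and 3 lower, beside 4.94% and 9.33% of all genes. The lower count was 1 without BNST 2, BNST 3, dStr 1 or dStr 3, near the background. Htr1b, a serotonin receptor, read 213, 116 and 153 in BNST and 556, 571 and 469 in dStr (-1.67, SE 0.31, adjusted p = 0.00589), with another probe set going the other way. Htr7, another serotonin receptor, was higher, at 204, 259 and 245 in BNST and 94.8, 125 and 89.8 in dStr (1.08, SE 0.16, adjusted p = 0.00138). Gpr101, an orphan receptor, read 313, 227 and 240 against 45.1, 57.7 and 41.2 (2.10, SE 0.25). Esr1, an oestrogen receptor, overlapped at 75.1, 80.8 and 70.5 in BNST and 83.1, 74.6 and 62 in dStr.

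Secreted signals and matrix genes followed. Of 56 genes of the Wnt, FGF and BMP pathways 12 were lower and 2 higher, beside 9.33% and 4.94% of all genes, with 1 higher when any of the 6 arrays other than BNST 1 was left out. Fgf20, a fibroblast growth factor, read 68.7, 30.1 and 50.5 in BNST and 296, 330 and 479 in dStr (-2.56, SE 0.26, adjusted p = 0.000196), and Spry2, an inhibitor of such signalling, read 186, 108 and 151 against 591, 494 and 592 (-1.83, SE 0.18). Acvr1c, an activin receptor, was lower too (-2.85, SE 0.50), with no overlap. Tgfb2, a growth factor of the same superfamily, was higher (0.90, SE 0.14). Sparc, a matricellular protein, read 1992, 1960 and 1687 in BNST and 458, 331 and 382 in dStr (2.23, SE 0.41, adjusted p = 0.00525). Nell2, a secreted glycoprotein, was lower (-2.07, SE 0.35) and its NAc mean of 785 was close to the dStr mean of 690.

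Imprinted genes are expressed mainly from the copy of 1 parent, and many were higher in BNST. Of 31 tested, 16 were higher and 3 lower in BNST, with a median of 0.74, beside 4.94% and 9.33% of all genes and their median of -0.06. The higher count stayed between 14 and 17 with any 1 of the 6 arrays left out. Dlk1, a Delta-like ligand, read 696, 330 and 303 in BNST and 15, 17.6 and 15 in dStr (3.75, SE 0.39, adjusted p = 0.000206), with a NAc mean of 522. Its other kept probe set differed by only 0.69. Asb4 read 187, 226 and 215 against 15, 22.4 and 16.2 (2.74, SE 0.20), with NAc at 28.9. Magel2 (2.54, SE 0.26) and Ndn (1.24, SE 0.15), neighbours in the Prader-Willi region, were both higher. Nap1l5, a nucleosome assembly protein gene, read 3765, 4204 and 4207 in BNST and 1208, 1496 and 1411 in dStr (1.56, SE 0.15). Nnat, neuronatin, read 3451, 3285 and 3323 against 1318, 1623 and 939 (1.40, SE 0.20). The noncoding RNA Meg3, from the same cluster as Dlk1, averaged 6773 ± 453 in BNST and 7384 ± 268 in dStr (SD, n = 3 each) and did not pass (-0.13, SE 0.12). Cobl and Ppp1r9a, both of which act on actin, were lower (-1.58 and -1.06). The imprinted list shares Gnas with the G protein list and Calcr with the peptide receptors.

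Immediate early genes were lower or did not pass. Of 25 tested 11 were lower and none higher, beside 9.33% and 4.94% of all genes, and their median was -0.86, beside -0.06 over all genes. The count ran from 7 without BNST 2 or dStr 1 to 14 without BNST 1. Egr3 read 281, 137 and 207 in BNST and 1047, 1175 and 1209 in dStr (-2.42, SE 0.27, adjusted p = 0.000335), and Egr1 read 1763, 753 and 1112 against 3603, 3129 and 2974 (-1.49, SE 0.27, adjusted p = 0.00502). The other kept probe set of Egr3 differed by only -0.37. Fos varied more within a region than between them, at 590, 133 and 303 in BNST and 590, 103 and 219 in dStr. Arc ran from 101 to 477 in BNST and from 313 to 1283 in dStr and did not pass (adjusted p = 0.0797). In both regions replicate 1 was the highest for Fos and Arc.

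Non-neuronal genes moved with the regions as well. Of 23 ependymal genes 13 were higher and none lower, beside 4.94% and 9.33% of all genes, and their summed intensity was 4623 to 8389 on the BNST arrays, against 2511 to 2715 on the dStr arrays. The count stayed between 11 and 13 with any 1 of the 6 arrays left out. Tmem212 read 561, 371 and 936 in BNST and stood at the floor on all dStr arrays, at least 38.7-fold higher (adjusted p = 2.92e-05), and Ccdc153, a gene of motile cilia, read 644, 379 and 1201 against 34.7, 24.4 and 15 (4.10, SE 0.35). BNST 3 was the highest array for both and BNST 2 the lowest. Otx2, a homeobox gene of choroid plexus, read 372, 209 and 250 in BNST and stood at the floor on all dStr and NAc arrays, at least 18-fold higher than in dStr (adjusted p = 2.92e-05). It was 1 of 9 choroid plexus genes tested, and the other 8 did not pass. Ttr, the main transcript of that tissue, overlapped at 621, 277 and 340 in BNST and 271, 308 and 302 in dStr.

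Astrocyte genes were higher for 10 of 30, with none lower, beside 4.94% and 9.33% of all genes. The count fell to 6 without BNST 3, dStr 1 or dStr 3. Gfap, the astrocyte filament gene, read 103, 175 and 206 in BNST and 40.2, 38.4 and 24.5 in dStr (1.78, SE 0.23), and Gja1, the gap junction gene, 2885, 2268 and 2707 against 1370, 1601 and 1318 (0.86, SE 0.15). Aqp4 and S100b, which also mark astrocytes, did not pass (0.29 and -0.09). The astrocyte list summed to 30237 to 33765 in BNST and 21479 to 23020 in dStr. Microglial genes were lower for 7 of 17, beside 9.33% of all genes, with none higher, but most of these calls were near the threshold: the count was 1 without BNST 2 or dStr 3, 2 without BNST 3, dStr 1 or dStr 2, and 8 without BNST 1. Tmem119, a homeostatic microglial gene, read 113, 117 and 129 in BNST and 179, 203 and 195 in dStr (-0.61, SE 0.12) and kept its call in each case. The list's sum was 4392 to 5423 in BNST and 7063 to 7490 in dStr. Of 26 oligodendrocyte genes 1 was lower (Klk6, -0.64, adjusted p = 0.0506 without BNST 3), 2 were lower without BNST 1, and Mbp, myelin basic protein, averaged 6936 ± 310 and 7180 ± 197. The part of these cell types in the neuronal results was not tested.

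Markers of neighbouring territory were examined too. Of 16 hypothalamic and preoptic genes 5 were higher (Baiap3, Resp18, Magel2, Hap1 and Nnat) and none was lower, beside 4.94% and 9.33% of all genes. That count did not change with any 1 of the 6 arrays left out. The other 11, among them Otp, Avp, Oxt, Hcrt, Pomc, Trh and Gal, did not pass, and the list median was 0.09. The sum over the list was 10824 to 11374 in BNST and 4127 to 5557 in dStr. It includes the 5 higher genes, and a sum over the other 11 was not computed. Baiap3, Resp18 and Hap1 alone averaged 1867, 1385 and 1388 in BNST and 149, 161 and 411 in dStr. Baiap3 and Resp18 are also members of the dense-core vesicle list, and Magel2 and Nnat of the imprinted list, and the part of neighbouring tissue in those results was not tested. Hap1, the huntingtin-associated protein gene, read 1417, 1303 and 1443 in BNST and 478, 439 and 317 in dStr (1.73, SE 0.17). Of 12 cortical pyramidal genes 1 was higher and 1 lower, beside the same shares of all genes. None of 9 meningeal genes passed limma's test over all genes.

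**Figure D5:**
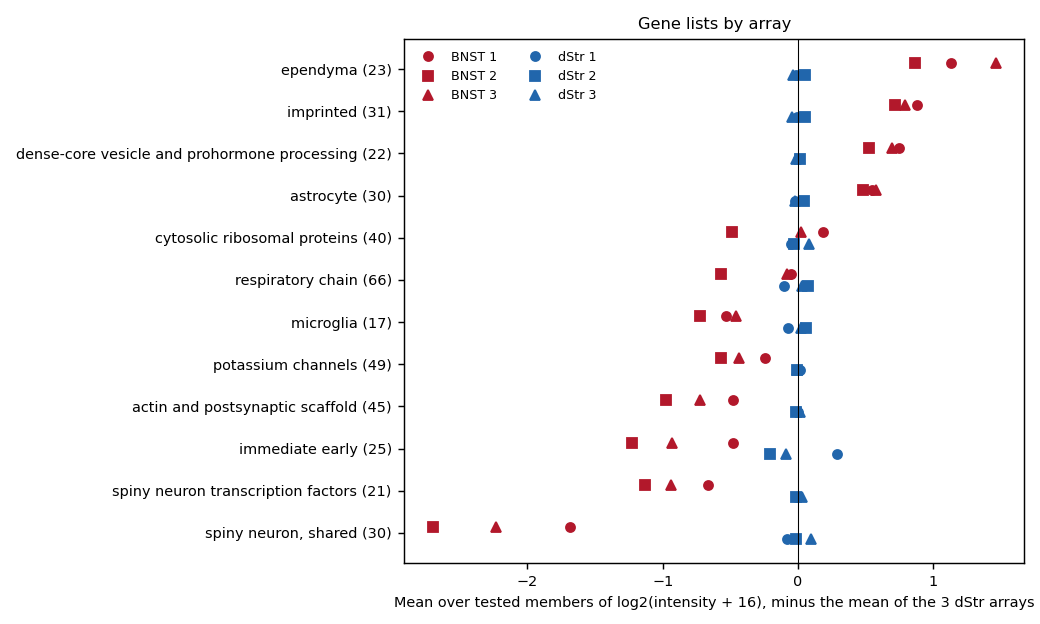
Mean of log2(intensity + 16) over the tested members of 12 gene lists on each array, minus the mean of the 3 dStr arrays (horizontal axis), with BNST in red above dStr in blue and symbols for replicates 1 to 3. BNST 1 lies nearest to dStr for the spiny neuron, transcription factor, immediate early, actin and potassium channel lists. BNST 2 is the lowest BNST array for every list shown, ribosomal and respiratory chain genes included.

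The accumbens, sampled in the same study, was used to place these differences. Its mean lay between those of BNST and dStr for 631 of the 702 higher genes (89.9%) and 1228 of the 1325 lower ones (92.7%). These shares are a description and not a test. The genes were chosen by their gap between BNST and dStr, where the mean of another region can readily fall. The share over all genes was not computed. Exceptions included Cartpt, Dlk1 and Pde1a, with NAc means of 1200, 522 and 672, above BNST means of 306, 443 and 462, and Coch, a matrix gene that was lower in BNST than in dStr (-2.54, SE 0.18), with means of 96.6 in BNST, 632 in dStr and 35.9 in NAc.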

How the data were processed

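Each array gave 1 intensity for each of 45037 probe sets, on a linear scale as deposited by the authors; how they were summarised and scaled is not given in the sources used here. Array medians lay between 93.9 and 102 and the lowest deposited intensity was 15, held by 2417 to 2641 probe sets on the 6 arrays; precision is limited by the number of arrays. Groups follow the region labels. Gene names came from the platform annotation matched through Entrez identifiers to RefSeq (GRCm38.p6): 34945 probe sets had 1 symbol, 932 several and 9160 none, and 34741 matched. Probe sets above their array's 40th percentile on at least 3 of 9 arrays were kept (29293), and the brightest one stood for each gene. Log2 values of intensity plus a pseudocount of 16 were fitted with limma 3.58.1 in R 4.3.3 (lmFit and eBayes) over all 9 arrays, with 1 mean per region and BNST minus dStr as the contrast, with Benjamini-Hochberg adjustment over 14208 genes and a threshold of 0.05. The fit was run on simulated data with independent noise and 200 changed genes, all above the median level. It recovered 65% of differences of 1 and 95% of differences of 2 on the log2 scale, with 10 false calls. The simulation held no outlying array and no floor. The genes followed under the alternatives were the 30 with the largest differences per direction whose regions did not overlap. They also included up to 6 passing genes per direction in each list. Not all of them are named here, and other list members are named that lie outside this set. The comparison, the lists and the motifs were chosen with earlier results of these data known. Alternatives covered normalisation, filter, pseudocount, probe-set summary, prior, replicate block, a log2 limit and each array left out.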

Additional observations from a re-analysis of the deposited data

How the results depend on the processing

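The 2027 genes differing between BNST and dStr comprised 702 higher and 1325 lower. Leaving out 1 of the 9 arrays gave 1112 to 2674 differing genes, 391 to 931 higher and 712 to 1918 lower. The counts were lowest without BNST 3 (1112 differing), dStr 3 (1171), dStr 1 (1174) or BNST 2 (1193, with 712 lower). They were highest without BNST 1 (2674) or NAc 1 (2673, with 931 higher), although NAc 1 enters only the estimate of the spread. Quantile normalisation gave 1265 higher and 1166 lower genes, and median centring 916 and 1205. A log2 difference of at least 1 left 866 genes, 267 higher and 599 lower, by its own construction. All other alternatives stayed within 1.5 times the counts given, from 1480 to 2526 genes. Replicate numbers were not treated as pairs, since deviations of same-numbered BNST and dStr arrays correlated at 0.06, 0.21 and -0.11 across genes, which does not exclude pairing for some of them; with the replicate number as a block, 1480 genes passed, 500 higher and 980 lower. A set of 312 genes was followed, chosen as described above and not all named here. Of these, 220 kept call and direction under every alternative that tested them, other than the log2 limit, and 198 with the limit included. When 1 array was left out, 85 of the set lost the call. The filter at the 60th percentile tested only 291 of the set, all of which kept the call. Averaging all probe sets of a gene turned the direction of Dnajc21 (0.022), Rit2 (-0.19) and Sema4a (0.31); the cause was not tested. Of 946 called genes with several kept probe sets, 241 had at least 1 of opposite sign. Probe sets of the same sign could also differ much in size, which is stated above for some genes only. Differences of genes near the floor are compressed.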

Other observations

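Of 5470 kept probe sets without a single gene symbol, 162 were higher and 414 lower in BNST at an adjusted p under 0.05 by limma; they are not named here. In a principal component analysis of the 6 arrays, component 1 took up 69.7% of variance and placed BNST 1, 2 and 3 at 14.4, 44.8 and 38.5 and the dStr arrays between -35.6 and -27.7. Component 2 took up 14.3% and placed BNST 1 at 31.9.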
